A study of Homo sapiens with 6 samples.

Results

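Matrix metalloproteinases (MMPs) and tissue inhibitors of metalloproteinases (TIMPs) were followed in cultured cells labelled as endothelial, with and without lipopolysaccharide (LPS), a component of the Gram-negative bacterial envelope that endothelial cells sense. The 8 genes described are the proteases MMP1, MMP2, MMP3, MMP10 and MMP14 and the inhibitors TIMP1, TIMP2 and TIMP3, picked by gene name from a table of 19755 protein-coding genes. The controls (genotype field WT, 3 libraries) and the LPS group (genotype field LPS-induced, 3 libraries) are both marked 12 h, and the stated LPS dose is 1000 ng/ml. The labels give EA.hy926, a hybrid line that carries an umbilical vein endothelial genome and that of A549 lung carcinoma, and they also say human umbilical vein endothelial cells, so the identity of the cells is uncertain. The treatment field reads Sepsis in all 6 libraries, and groups were therefore read from the titles. The labels do not tell whether replicates came from separate cultures, so the spread behind each p-value is that of the 6 libraries and may be only technical.

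MMPs are zinc-dependent endopeptidases that cut collagens, laminins, proteoglycans and many other extracellular proteins. They are made as inactive zymogens, and TIMPs block the active enzymes by inserting their N-terminus into the catalytic cleft. In endothelium they act in basement membrane turnover, sprouting and loss of barrier function. MMP14 is anchored in the plasma membrane, where a complex with TIMP2 brings the zymogen of MMP2 into place for activation, so TIMP2 takes part in activation as well as inhibition.

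Sequence upstream of the annotated start is shown for MMP10, the member with the largest difference between groups, and for TIMP1, the most abundant one. RefSeq promoters (GRCh38.p14) were at hand for 4 of the 8 members, namely MMP10, MMP14, TIMP1 and TIMP3. Each line runs 5′ to 3′ over the 250 bases before the start, at chr11:102780629-102780878 (minus strand) for MMP10 and chrX:47582186-47582435 (plus strand) for TIMP1. Capitals mark every match, on either strand, to one of the motifs searched. For binding sites of the AP-1 type, the factor formed by JUN and FOS proteins, the letters searched were TGANTCA. The TATA box, which positions the start of transcription, was searched as TATAAA. For the GC box, bound by SP1 and its relatives, the search was for the letters GGGCGG. The core of the interferon-stimulated response element and an NF-kB type motif were searched as well.
MMP10: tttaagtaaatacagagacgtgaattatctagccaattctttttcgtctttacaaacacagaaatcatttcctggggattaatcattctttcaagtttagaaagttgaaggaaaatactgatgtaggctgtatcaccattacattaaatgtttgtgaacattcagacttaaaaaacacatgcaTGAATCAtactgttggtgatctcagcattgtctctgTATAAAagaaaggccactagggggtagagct
TIMP1: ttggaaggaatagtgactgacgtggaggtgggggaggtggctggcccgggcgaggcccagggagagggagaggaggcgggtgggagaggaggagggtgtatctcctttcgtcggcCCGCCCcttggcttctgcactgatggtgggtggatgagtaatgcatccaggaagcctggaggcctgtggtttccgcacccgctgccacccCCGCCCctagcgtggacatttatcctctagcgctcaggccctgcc

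The MMP10 stretch was 34.4% G and C and held an AP-1 type match at −67 to −61 and a TATA box match at −31 to −26 from the start. The TIMP1 stretch was 64.8% G and C and held GC box matches at −135 to −130 and −45 to −40. The MMP14 window held 1 GC box match, at −66 to −61, and the TIMP3 window held 5 between −166 and −13, with G and C at 56.8% and 72.4% of the bases. In none of these 4 windows did the interferon or NF-kB pattern match. No matches overlapped apart from the AP-1 one, which was found on both strands because the pattern searched is its own reverse complement. The search covered the 250 bases shown and the 50 after the start, where the 4 members had no match. Among 35116 RefSeq windows of the same 300 bases, the AP-1 pattern was present in 7.71%, the TATA box in 11.5%, the GC box in 45.0%, the interferon pattern in 3.57% and the NF-kB pattern in 1.91%. A match describes these letters only.

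All levels below are FPKM, fragment counts scaled to transcript length and to the mapped fragments of the library, so that genes can be set side by side. Library depth is unknown, because the tables hold no counts. Summed FPKM of protein-coding genes was 256047 to 264878 per library. Marker genes were read in the same libraries. All 12 endothelial markers reached a mean of 0.5 FPKM, with a summed level of 386 to 508 in controls and 472 to 605 with LPS. Within that list CLDN5, TEK, ROBO4, ERG and PECAM1 were higher with LPS without overlap. This pattern was seen in 8.68% of all protein-coding genes with a mean of at least 0.5 FPKM. EMCN was lower without overlap, at 1.13 to 1.70 in controls and 0.189 to 0.615 FPKM with LPS. The share of all genes that were lower without overlap was not counted. Of 14 fibroblast and smooth muscle markers 12 reached a mean of 0.5 FPKM, summing to 4028 to 4398 and 3919 to 4418, while MYH11 and DES stayed under 0.5 everywhere. Fibrillar collagen genes carried most of that sum, with means of 1460 FPKM for COL1A1, 1243 for COL1A2 and 739 for COL3A1, so the fibroblast and smooth muscle list was far above the endothelial one in every library. In the fibroblast and smooth muscle list THY1 and MYH11 were higher with LPS without overlap, and LUM, PDGFRA and COL3A1 were lower. Of 12 epithelial and A549 markers 6 reached a mean of 0.5 FPKM. The summed level of these markers was lower with LPS without overlap, 137 to 146 against 97.9 to 121. KRT7 within that list had the opposite direction, at 15.9 to 17.7 in controls and 18.8 to 32.5 FPKM with LPS. SFTPC and NKX2-1 in that list were listed at 0 in every library. Of 12 leukocyte markers 2 reached a mean of 0.5 FPKM, CD68 and CD14, and PTPRC, CD3E and AIF1 were listed at 0 throughout. CD68 stood at 3.70 to 7.61 FPKM over the 6 libraries and overlapped. CD14 was lower with LPS without overlap, at 0.484 to 1.14 in controls and 0.309 to 0.431 FPKM with LPS. In bulk RNA, fewer cells of a type and less RNA per cell cannot be told apart, and the part of cell makeup in the results below was not tested.

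The order of the members by mean FPKM was the same in both groups, TIMP1, MMP14, MMP1, MMP2, TIMP2, TIMP3, MMP10 and MMP3. TIMP1 had the 7th highest mean of all protein-coding genes and made up 0.741% of their summed FPKM. MMP14 ranked 58, MMP1 129, MMP2 444, TIMP2 544 and TIMP3 660, whereas MMP10 ranked 10070 and MMP3 13007. The ranges over the libraries of a group overlapped between MMP2 and TIMP2 and between TIMP2 and TIMP3, in controls and with LPS alike. Every other pair of neighbours in the order was separate in both groups.

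**Figure D1:**
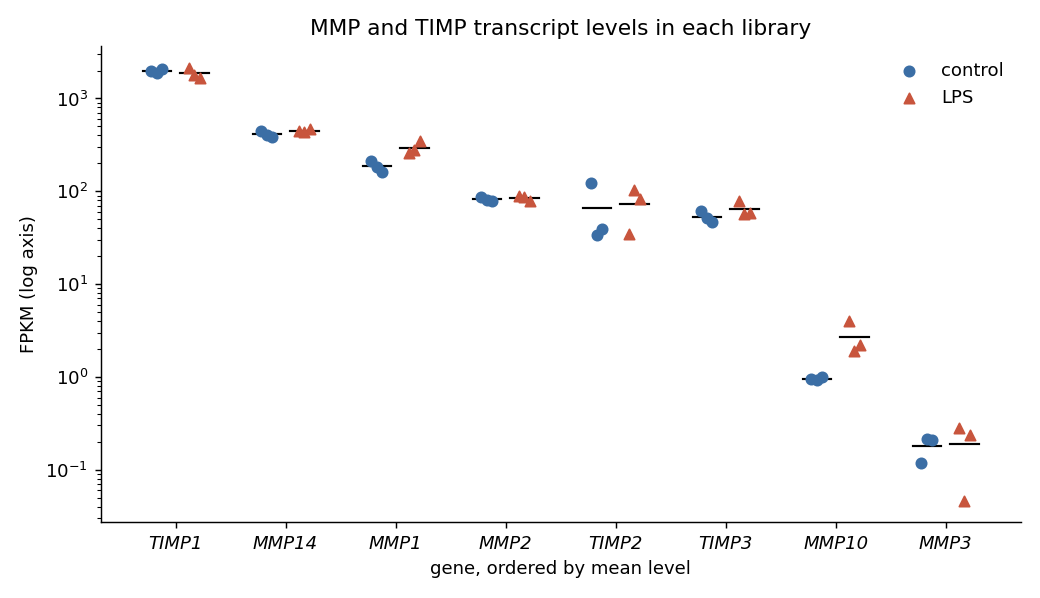
FPKM (log axis) of the 8 genes in each library, ordered by mean level, with controls as circles, LPS libraries as triangles and group means as horizontal bars. MMP1 and MMP10 are the genes whose 3 LPS libraries all lie above the 3 controls, and TIMP2 is spread over 34.0 to 123 FPKM within the groups.

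Differences between groups were tested with limma on log2(FPKM + 0.5) over the 12068 protein-coding genes with a mean of at least 0.5 FPKM. MMP3 fell short of that level, so 7 of the 8 members were tested. The adjusted p (Benjamini-Hochberg over all tested genes) was under 0.05 for 0 of these 7, and for 0.058% of all tested genes. At an unadjusted limma p under 0.05 there were 2 members, MMP1 and MMP10, both higher with LPS, against 10.4% of all tested genes in either direction and 5.13% higher and 5.26% lower. These 2 were also the members whose libraries did not overlap between groups, with LPS higher, a pattern seen in 8.68% of tested genes. With at least 2-fold as a further condition 1 member was left, MMP10, against 0.87% of tested genes. The median log2 change of the 7 members was 0.28, and that of all tested genes −0.01.

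MMP1 (ENSG00000196611), the interstitial collagenase that cleaves fibrillar collagens, stood at 214, 181 and 162 FPKM in controls 1 to 3 and at 258, 275 and 347 FPKM in LPS 1 to 3. Each LPS library was above each control, and LPS 3 was the highest. The means were 186 ± 26.5 and 294 ± 47.2 FPKM (SD, n = 3 each), 1.58 times higher with LPS. The log2 change was 0.66 (SE 0.15, 95% interval 0.31 to 1.01), with a limma p of 0.00263 and an adjusted p of 0.236, which did not pass the threshold. The gene lies at chromosome 11 positions 102789919 to 102798160 on the minus strand (GRCh38), and its level came from a single transcript of 10 exons.

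MMP10 (ENSG00000166670), stromelysin 2, degrades proteoglycans, laminin and fibronectin and can activate other MMP zymogens. It stood at 0.944, 0.933 and 0.996 FPKM in controls 1 to 3 and at 4.05, 1.89 and 2.23 FPKM in LPS 1 to 3. The controls were close together, while LPS 1 was well above the other LPS libraries. Mean levels were 0.958 ± 0.0335 and 2.72 ± 1.16 FPKM (SD, n = 3 each), 2.84 times higher with LPS. The pseudocount of 0.5 compresses differences at so low a level, and on that log2 scale the difference was 1.09 (SE 0.24, 95% interval 0.52 to 1.65). By limma the p was 0.00249 and the adjusted p 0.236. Without LPS 1 the log2 change was 0.81, and the unadjusted p stayed under 0.05 when any of the 6 libraries was left out. MMP10 lies at chromosome 11 positions 102770502 to 102780628, minus strand.

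MMP3 (ENSG00000149968), stromelysin 1, is closely related to MMP10 and acts on similar substrates. It was near the lower limit in all libraries, at 0.117, 0.215 and 0.207 in the controls against 0.284, 0.0465 and 0.234 FPKM with LPS. The groups overlapped, with LPS 1 the highest and LPS 2 the lowest library. It lies at chromosome 11 positions 102835801 to 102843609, minus strand.

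These 3 genes belong to a cluster of 9 MMP genes on chromosome 11, all on the minus strand, which runs from MMP7 (starting at 102520508) to MMP13 (ending at 102955732). Within it MMP1 was the abundant gene. MMP20, MMP27 and MMP13 were listed at 0 in all 6 libraries. MMP7 reached at most 0.0559 FPKM, MMP8 0.0175 and MMP12 0.0135. Of the 2 genes beside MMP10 in the cluster, MMP8 was near 0 and MMP1 was abundant and, like MMP10, without overlap between groups.

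WTAPP1, a pseudogene-derived noncoding gene on the plus strand (102746968 to 102836766), overlaps MMP10, MMP1 and the end of MMP3. It stood at 2.95, 2.72 and 2.01 in the controls against 3.41, 4.53 and 4.85 FPKM with LPS, and the groups did not overlap. In a fit over all 15944 tested genes of any class, its log2 change was 0.64 (SE 0.19), with a limma p of 0.0103 and an adjusted p of 0.414. Of the genes overlapping a member, 2 were abundant enough to test and 0 had an adjusted p under 0.05, against 0.0502% of all genes in that table. Unadjusted, WTAPP1 was the 1 that was higher, and higher without overlap, against 4.57% and 8.13% of those genes. Nearly all of the WTAPP1 level, 99.4%, was in an assembled transcript from 102789936 to 102836766, which starts just inside the 3′ end of MMP1 and covers the rest of it. Whether counting used strand is not given in the sources used here. Without strand, reads of MMP1 and of WTAPP1 cannot be told apart where their exons overlap, and exons were not compared.

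MMP14 (ENSG00000157227), the membrane-anchored collagenase, stood at 448, 400.3 and 384 FPKM in controls 1 to 3 and at 445, 437 and 464 FPKM in LPS 1 to 3. Control 1 lay within the LPS range, so the groups overlapped. The means were 411 ± 33.0 and 449 ± 13.9 FPKM (SD, n = 3 each), with a log2 change of 0.13 (SE 0.09, 95% interval −0.09 to 0.35) and a limma adjusted p of 0.681. The full-length transcript MMP14-201 gave 99.2% of the level. MMP14 lies at chromosome 14 positions 22836560 to 22849027 on the plus strand.

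MMP2 (ENSG00000087245), gelatinase A, digests type IV collagen of basement membranes and denatured collagens. It had the narrowest spread of the members, with 87.2, 80.2 and 79.3 in the controls against 89.2, 87.1 and 78.2 FPKM with LPS. The highest and the lowest library were both LPS libraries. The means were 82.2 ± 4.31 and 84.8 ± 5.85 FPKM (SD, n = 3 each), and the log2 change was 0.04 (SE 0.09, 95% interval −0.18 to 0.26, limma adjusted p 0.903). MMP2-201 gave 99.6% of the level. The gene spans chromosome 16 positions 55389700 to 55506691, plus strand, and that transcript starts at 55479198.

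**Figure D2:**
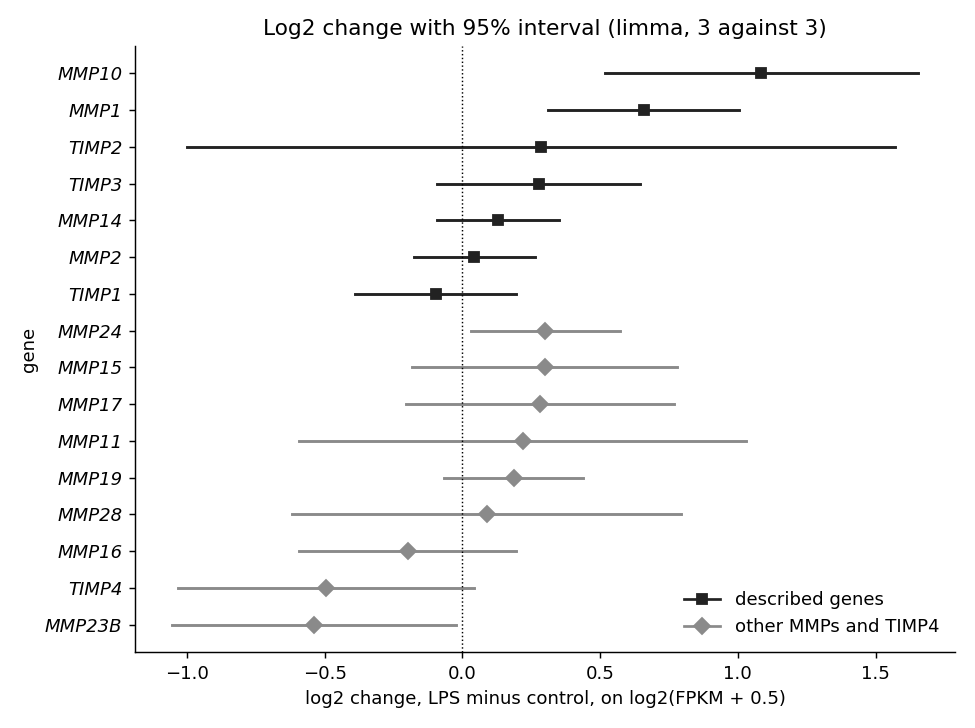
Log2 change (LPS minus control, on log2(FPKM + 0.5)) with its 95% interval from limma, for the 7 tested members (black squares) and the 9 other MMP and TIMP genes that reached 0.5 FPKM (grey diamonds). The intervals of MMP10 (0.52 to 1.65) and MMP1 (0.31 to 1.01) lie above 0, as does that of MMP24 (0.03 to 0.57), while that of MMP23B (−1.05 to −0.02) lies below 0 and that of TIMP2 is the widest, from −0.999 to 1.57.

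TIMP1 (ENSG00000102265), a soluble inhibitor of most secreted MMPs, stood at 1990, 1878 and 2069 FPKM in controls 1 to 3 and at 2153, 1783 and 1645 FPKM in LPS 1 to 3. LPS 1 was the highest library and LPS 3 the lowest, so the LPS group enclosed the controls. The means were 1979 ± 95.6 and 1860 ± 262 FPKM (SD, n = 3 each), and the log2 change was −0.10 (SE 0.12, 95% interval −0.39 to 0.19, limma adjusted p 0.820). TIMP1 lies at chromosome X positions 47582408 to 47586789 on the plus strand, inside the gene SYN1, which encodes a neuronal synapsin, runs the other way and stood at 0.279 to 0.656 FPKM.

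TIMP1-201, with 6 exons and a coding length of 621 bases, gave 92.0% of the TIMP1 level. A minor form, TIMP1-202, has 5 exons and a coding length of 429 bases. It stood at 37.4, 33.9 and 47.1 in the controls against 74.0, 61.5 and 61.9 FPKM with LPS, without overlap, and was singled out after its values were seen. Its log2 change was 0.74 (SE 0.16, 95% interval 0.35 to 1.13), with a limma p of 0.00378 and an adjusted p of 0.418 over 20563 tested transcripts. As a share of the gene it was 1.80% to 2.28% in controls and 3.44% to 3.76% with LPS. TIMP1-203, with 4 exons, also did not overlap, at 18.9 to 23.8 against 25.3 to 28.7 FPKM (limma p 0.0358, adjusted p 0.741). Of the 13 member transcripts tested, 0 had an adjusted p under 0.05, against 0.126% of all tested transcripts. At an unadjusted limma p under 0.05 there were 4, all higher with LPS and without overlap (MMP1-201, MMP10-201, TIMP1-202 and TIMP1-203), where 3.24% of all tested transcripts were higher at that level and 6.69% higher without overlap. Levels of transcripts that share most of their exons are estimates by the authors' software, and no error of that estimate is given.

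TIMP2 (ENSG00000035862), the partner of MMP14 in activating MMP2, varied more between libraries than between groups. Its level was 123, 34.0 and 39.6 FPKM in controls 1 to 3 and 35.0, 103 and 83.6 FPKM in LPS 1 to 3. Control 1, LPS 2 and LPS 3 were high and the other 3 libraries low, a division that cuts across the groups. The means were 65.4 ± 49.7 and 73.8 ± 34.9 FPKM (SD, n = 3 each), with a log2 change of 0.29 (SE 0.55, 95% interval −0.999 to 1.57, limma adjusted p 0.892). Its sign turned when control 2 or LPS 2 was left out (−0.06 and −0.02). The highest library was 3.61 times the lowest, a ratio reached by 8 of the 793 protein-coding genes with a mean of at least 50 FPKM, TIMP2 included, whose median ratio was 1.33. For MMP1, the same ratio was 2.14.

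In the transcript levels estimated by the authors' software, the division lay in the full-length transcript TIMP2-201 (5 exons). It stood at 110, 23.5 and 22.1 FPKM in controls 1 to 3 and 18.9, 94.1 and 71.3 FPKM in LPS 1 to 3. TIMP2-204, a form of 4 exons that starts inside the gene, stayed between 8.39 and 17.2 FPKM. The split between TIMP2-201 and TIMP2-204 is an estimate, and no error of it is given. The share of TIMP2-201 in the gene was 89.6%, 91.7% and 85.3% in control 1, LPS 2 and LPS 3, and 53.9% to 69.1% in the others. The gene spans chromosome 17 positions 78852977 to 78925387 on the minus strand. An assembled transcript of the antisense gene AC100788.1 covers nearly the same span, and that gene stood at 10.3 to 14.4 FPKM in the 6 libraries (log2 change −0.17, limma adjusted p 0.755). CEP295NL, which lies inside TIMP2 on the same strand and was added after its values were seen, was too low to test, at 0.164 to 0.326 in controls and 0.428 to 0.624 FPKM with LPS. Reads of TIMP2 and AC100788.1 cannot be told apart without strand where their exons overlap, and exons were not compared. The cause of the spread was not tested.

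**Figure D3:**
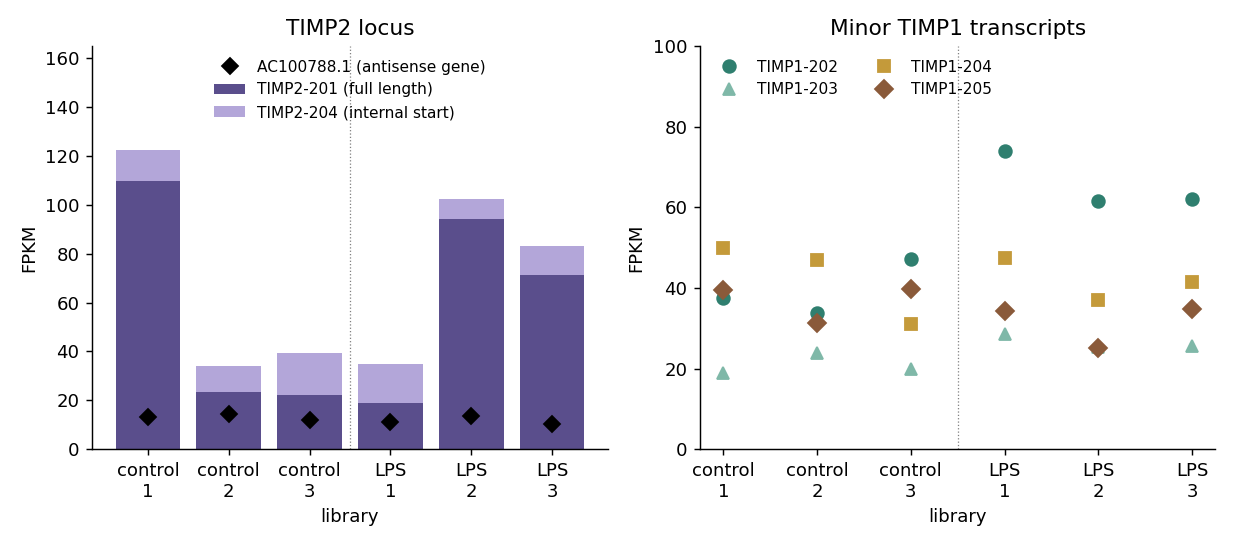
FPKM per library of the TIMP2 transcripts (stacked bars) with the antisense gene AC100788.1 (diamonds) on the left, and of 4 minor TIMP1 transcripts on the right; the dotted line parts controls from LPS libraries. TIMP2-201 is at 71.3 FPKM or more in control 1, LPS 2 and LPS 3 and at 23.5 or less in the others, and TIMP1-202 is at 61.5 or more with LPS and at 47.1 or less in controls.

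TIMP3 (ENSG00000100234) is bound to the extracellular matrix and also inhibits ADAM17, the sheddase that releases tumour necrosis factor. It stood at 60.8, 51.4 and 46.5 FPKM in controls 1 to 3 and at 78.7, 56.5 and 58.5 FPKM in LPS 1 to 3. LPS 1 was the highest, and control 1 was above the other LPS libraries. The means were 52.9 ± 7.28 and 64.6 ± 12.3 FPKM (SD, n = 3 each), with a log2 change of 0.28 (SE 0.16, 95% interval −0.09 to 0.65, limma adjusted p 0.584). TIMP3 lies at chromosome 22 positions 32801701 to 32863043, plus strand, within the oppositely oriented gene SYN3, which was listed at 0 in 5 libraries and at 0.0295 FPKM in LPS 2.

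Levels of protease and inhibitor transcripts were also set against each other within each library. MMP1 to TIMP1 was 0.108, 0.0962 and 0.0782 in controls 1 to 3 and 0.120, 0.154 and 0.211 in LPS 1 to 3. The groups did not overlap, and LPS 3, with the highest MMP1 and the lowest TIMP1, had the highest ratio. Means were 0.0940 ± 0.0148 and 0.162 ± 0.0459 (SD, n = 3 each). The summed FPKM of the 5 MMPs divided by that of the 3 TIMPs was 0.345, 0.337 and 0.291 in controls and 0.352, 0.412 and 0.499 with LPS, with control 1 just under LPS 1. The sum of the MMPs was 680 ± 63.6 and 830 ± 53.5 FPKM, and that of the TIMPs 2097 ± 116 and 1999 ± 244 FPKM. MMP1 made up 25.8% to 28.6% of the summed MMP level in controls and 32.4% to 38.9% with LPS, and MMP14 59.7% to 61.3% and 52.0% to 55.9%. MMP2 to TIMP2 followed the division of TIMP2, at 0.710, 2.36 and 2.003 in controls and 2.55, 0.848 and 0.935 with LPS. The MMP1 values enter the MMP1 to TIMP1 ratio, the MMP sum and the shares, so these restate MMP1 in part. The share of MMP14 was lower with LPS although its mean FPKM was 411 in controls and 449 with LPS. The ratios compare transcript levels, not enzyme activity, and were not tested.

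**Figure D4:**
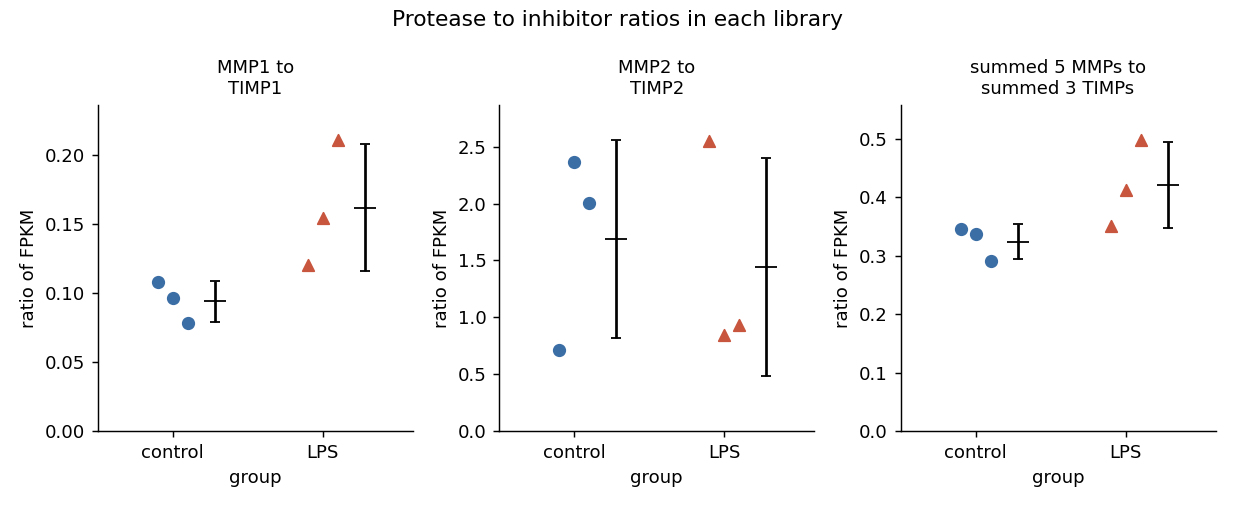
Ratio of FPKM in each library for MMP1 to TIMP1, MMP2 to TIMP2 and the summed 5 MMPs to the summed 3 TIMPs, with the mean ± SD of each group beside the points. The LPS libraries are above the controls for MMP1 to TIMP1 (0.120 to 0.211 against 0.0782 to 0.108) and for the sums (0.352 to 0.499 against 0.291 to 0.345), and mixed for MMP2 to TIMP2.

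Among the 19 other genes of both families (18 MMPs and TIMP4), 9 were tested and 0 had an adjusted p under 0.05. Unadjusted, 1 was higher and 1 lower by limma, where 5.13% of all tested genes were higher and 5.26% lower. MMP24, a membrane-anchored MMP that shares its locus with the opposite-strand gene MMP24OS and is therefore uncertain, stood at 3.91 ± 0.184 and 4.92 ± 0.190 FPKM (limma p 0.0339, adjusted p 0.444). MMP23B, which has a near-identical copy and is uncertain, stood at 3.29 ± 0.628 and 2.15 ± 0.667 FPKM (limma p 0.0431, adjusted p 0.462). TIMP4 was at 3.02 ± 0.843 and 1.98 ± 0.480 FPKM and overlapped between groups. The LPS libraries were all above the controls for MMP24 and for MMP19, the latter at 7.11 ± 0.484 and 8.16 ± 0.152 FPKM. This pattern was seen in 8.68% of all tested genes. For MMP23B the LPS libraries were all below the controls, at 2.92 to 4.02 in controls and 1.47 to 2.81 FPKM with LPS. Among the membrane-anchored MMP15, MMP16 and MMP17, MMP17 had the highest level, at 11.8 ± 3.16 and 14.2 ± 2.29 FPKM, with MMP15 at 2.29 ± 0.417 and 2.98 ± 0.817 and MMP16 at 0.967 ± 0.185 and 0.774 ± 0.114 FPKM. MMP11 was at 2.69 ± 0.761 and 3.42 ± 1.81 FPKM and MMP28 at 0.959 ± 0.292 and 1.11 ± 0.603 FPKM. MMP9, gelatinase B, was below the level for testing, at 0.608, 0.122 and 0.203 in the controls against 0.685, 0.660 and 0.576 FPKM with LPS, and control 1 was within the LPS range.

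Genes that act around the MMPs were read from lists, in each of which 0 members had an adjusted p under 0.05 by limma, against 0.058% of all tested genes. Of 15 tested genes that act in zymogen activation or protease inhibition around the MMPs, 1 was higher and 2 lower unadjusted (5.13% and 5.26% of all tested genes), with a median log2 change of −0.09. SERPINE2, a serpin that inhibits thrombin and plasminogen activators, stood at 23.4 ± 2.18 and 15.0 ± 0.994 FPKM (limma p 0.000621, adjusted p 0.173) without overlap. PLAUR, the receptor that holds urokinase at the cell surface, stood at 36.4 ± 3.45 and 46.0 ± 6.10 FPKM (limma p 0.0337, adjusted p 0.444). CLDN1, a claudin able to promote MMP2 activation, overlapped between groups, at 1.77 ± 0.697 and 0.831 ± 0.488 FPKM (limma p 0.0395, adjusted p 0.453).

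The ADAM and ADAMTS proteases, relatives of the MMPs of which TIMP3 inhibits several, had 18 tested genes, with 3 higher and 3 lower unadjusted (all tested genes, 5.13% and 5.26%) and a median of 0.08. ADAMTS4, an aggrecanase, stood at 11.03 ± 0.691 and 15.6 ± 0.933 FPKM, and ADAM19 at 14.8 ± 4.26 and 24.2 ± 4.49 FPKM (limma adjusted p 0.220 and 0.350). ADAMTS1, which cleaves versican and aggrecan, had the opposite sign, at 41.0 ± 7.68 and 25.2 ± 5.72 FPKM (limma adjusted p 0.324). Thus genes of this list lay on both sides of 0.

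Transcription factors that act on MMP promoters had 20 tested genes, with 4 higher and 0 lower unadjusted (5.13% and 5.26% over all tested genes) and a median of −0.03. The 3 with the smallest p were NFKB2, RELA and RELB, which encode subunits of NF-kB. NFKB2 stood at 17.3 ± 1.22 and 25.2 ± 3.37 FPKM, RELA at 7.70 ± 1.42 and 11.2 ± 1.07 FPKM and RELB at 9.84 ± 0.372 and 12.6 ± 1.01 FPKM, none overlapping between groups (limma adjusted p 0.255, 0.336 and 0.355). Among all tested genes 8.68% were higher without overlap. NFKB1, a further NF-kB subunit added after its values were seen, was at 11.5 ± 0.571 and 12.2 ± 1.21 FPKM and overlapped (limma adjusted p 0.843). The JUN and FOS family genes of the list overlapped too. JUN stood at 118 ± 1.82 and 103 ± 38.3 FPKM and FOS at 66.7 ± 20.6 and 50.2 ± 32.4 FPKM (limma adjusted p 0.738 and 0.694). Means of JUNB, JUND, FOSB and FOSL1 were also lower with LPS, and that of FOSL2 was higher.

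Matrix substrates of the MMPs had 25 tested genes, with 7 higher and 2 lower unadjusted (against 5.13% and 5.26% of all tested genes) and a median of 0.07. The smallest p values belonged to collagens of the vascular basement membrane. COL18A1, the source of endostatin, stood at 79.0 ± 4.48 and 114 ± 16.99 FPKM. COL4A1 stood at 268 ± 28.8 and 377 ± 44.9 FPKM and COL4A2 at 248.9 ± 25.4 and 336 ± 28.7 FPKM (limma adjusted p 0.267, 0.273 and 0.288). All 3 were higher in each LPS library than in each control. This held for 7 tested genes of the list and for 8.68% of all tested genes. In 4 genes of the list each LPS library was lower than each control, a pattern that was not counted over all tested genes. These were COL3A1, LUM (21.5 ± 4.65 and 12.8 ± 2.78 FPKM) and the laminin genes LAMA4 (153 ± 10.0 and 122 ± 9.73 FPKM) and LAMC1 (239 ± 16.6 and 207 ± 3.98 FPKM). Of them, LUM and LAMA4 had an unadjusted limma p under 0.05, and COL3A1 and LAMC1 did not.

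For each tested member, the protein-coding gene most like it over the 6 libraries was found among 11190 genes with a mean of at least 1 FPKM, by Pearson's r of log2 values. With 6 points and so many genes, high values of r arise readily, and they are given as a description. MMP10 was closest to IFIT1, an interferon-induced antiviral gene (r = 0.994), which stood at 0.524, 0.523 and 0.567 in the controls against 3.84, 1.49 and 2.23 FPKM with LPS. Both genes had their highest value in LPS 1 and their lowest LPS value in LPS 2. MMP1 was closest to ARHGDIA (r = 0.994), with 79.5 to 87.4 in the controls against 95.1 to 102 FPKM with LPS. The nearest genes of the others were FNDC4 for MMP2 (0.989), TMEM173 for MMP14 (0.993), the serine protease inhibitor TFPI2 for TIMP1 (0.986), the sialic acid synthase NANS for TIMP2 (0.993) and ZBTB4 for TIMP3 (0.981). NANS spanned a far narrower range than TIMP2, from 40.5 to 46.4 FPKM.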

How the data were processed

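Libraries of 3 control and 3 LPS samples were compared. Per the submitters' processing notes, HISAT2 and StringTie were used (versions not given in the sources used here). These notes name the mouse build mm9, whereas identifiers and positions in the tables are human (GRCh38). The deposited values are FPKM calculated by the authors for protein-coding genes, protein-coding transcripts, all annotated genes and all transcripts; the lncRNA table was not used. Genes with a mean of at least 0.5 FPKM were tested with limma 3.58.1 in R 4.3.3 (group alone, eBayes with trend, two-sided, Benjamini-Hochberg per table, threshold 0.05), and the procedure was tested on simulated data. Depth is unknown, so no counting error is given; precision rests on 3 libraries a group. Strand, exon counts and gene classes come from GENCODE 29, in which 3 of the 8 members had the same start and end. Members and lists were chosen with earlier results of these data known. Named are all members, other MMP and TIMP genes that were tested or lie in the chromosome 11 cluster, the 3 smallest p in each further list, overlapping genes with a mean of at least 0.5 FPKM with SYN1 and SYN3, transcripts with at least 5% of a member, and 1 nearest gene per member. MMP9, NFKB1, the JUN and FOS family genes, LUM, LAMA4, LAMC1, CEP295NL, TIMP1-202, TIMP1-203 and the single marker genes were added after their values were seen. Alternatives were pseudocount, filter, scaling, replicate block, library weights, robust eBayes and leaving out each library.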

Additional observations from a re-analysis of the deposited data

How the results depend on the processing

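No member passed an adjusted p under 0.05 in the gene table in any of the alternatives run with that threshold; their smallest adjusted p lay between 0.206 and 0.537. With an unadjusted p under 0.05 and at least 2-fold as the rule, 1 member passed, MMP10, against 0.87% of tested genes. MMP1 and MMP10 kept their sign and an unadjusted p under 0.05 in all 15 alternatives (log2 change 0.53 to 0.77 and 0.81 to 1.34). MMP24, MMP23B and CLDN1 kept their sign, but had an unadjusted limma p under 0.05 in only 11, 7 and 7 of the 15. Correlations of the deviations of same-numbered libraries were 0.0175, 0.105 and 0.0605, and those of differently numbered ones −0.0840 to 0.0228. With 3 libraries a group, these values cannot tell whether equal replicate numbers share a batch. With the replicate block, 0 members and 0 of all protein-coding genes passed, against 7 genes without it, and TIMP3 had an unadjusted p of 0.0269. The counts of all protein-coding genes past the threshold were 0 to 8 when each library was left out (0 without control 2 and without LPS 2, with 1046 and 1213 genes at an unadjusted limma p under 0.05) and 0 without a filter. Some signs turned among values that never passed; the cause was not tested. TIMP2 had −0.0226 with library weights. Leaving out each library gave −0.0575 to 0.862 for TIMP2 (below 0 without control 2 and without LPS 2), −0.0686 to 1.13 for TIMP2-201 (below 0 without control 3 and without LPS 2), −0.373 to 0.0697 for TIMP2-204 (above 0 in those same 2) and −0.00374 to 0.0977 for MMP2-201 (below 0 without LPS 1). It gave −0.124 to 0.561 for MMP11 (below 0 without LPS 3) and −0.178 to 0.391 for MMP28 (below 0 without control 1 and without LPS 2). In an alternative added after seeing the data, leaving out each library moved the difference of the mean MMP1 to TIMP1 ratio within 0.0431 to 0.0886 (0.0677 with all) and that of MMP2 to TIMP2 within −0.801 to 0.0873 (−0.248 with all), so the latter has no stable sign. Unknown depth limits what can be said of MMP3, MMP9 and MMP10.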
